A study of Mus musculus with 7 samples.

Results

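The mRNAs followed here code for 10 proteins of heme and iron metabolism in mouse liver: Alas1, Alad and Fech, which make heme; Hmox1, which breaks it down; Tfrc, Tfr2 and Trf, which bring iron into cells; Slc40a1 and Hamp, which let it out and hold it back; and Ireb2, which senses it. They were chosen by symbol, and each has a single probe set, so that the set holds 10 of the 19938 genes that have a probe set annotated with a single symbol. Male C57/BL6 mice, 9 to 11 weeks old in the labels and older at collection in the study's methods, had been kept in a cycle of light and darkness with free access to food, and for the last 7 days could eat during the dark phase only. Livers were perfused and collected at 7 times, 4 h apart and running from ZT02 to ZT26. ZT (Zeitgeber time) counts hours from lights on and lights go off at ZT12. RNA from 5 livers was pooled at each time and hybridised to 1 Affymetrix Mouse Gene 1.0 ST array. No mutant, drug or free-feeding group is part of the design, and as light and meals changed together on every array, their parts in a rhythm cannot be told apart.

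Heme is built in a chain of enzymatic steps, of which the first, catalysed in liver by Alas1, sets the rate, and in liver much of the heme goes into cytochromes P450. Hmox1 opens the heme ring and frees its iron. Iron reaches cells bound to transferrin (Trf), which liver secretes, and enters through the transferrin receptor Tfrc. Ferroportin (Slc40a1) is the known exporter, and the liver hormone hepcidin (Hamp) removes it from the cell surface. Iron regulatory proteins, among them Ireb2, bind stem loops in mRNAs such as that of Tfrc when iron is scarce. Heme is also a ligand of the nuclear receptors Nr1d1 and Nr1d2 of the clock.

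Every tested probe set was given a 24-h cosine on its log2 values, with ZT02 and ZT26 as points of the same clock time. Its amplitude runs from mean to peak on the log2 scale, its fold is peak over trough, and a gene is called rhythmic at an adjusted p under 0.05 (limma, Benjamini-Hochberg). Levels are given in units, which are the deposited log2 values taken back to the natural scale. Probes differ in how brightly they bind, so that units of one gene cannot be set against those of another. With 1 pool at each time, a p-value says how far a cosine stands out over 7 pools, not how far mice differ. Among the 10 genes, Alas1 and Hmox1 were called rhythmic, 2 of 10 where 4.47% of the 12076 tested probe sets were called. An unadjusted p under 0.05 was found for 5 of the 10 (Alas1, Hmox1, Fech, Tfrc and Ireb2), against 25.7% of those tested. Their median amplitude was 0.15, against 0.09 over all tested, whose quartiles were 0.05 and 0.17. A ratio of highest to lowest array above 1.5 was seen for 4 of the 10 (Alas1, Tfrc, Hamp and Hmox1), against 16.3% of tested probe sets.

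**Figure D1:**
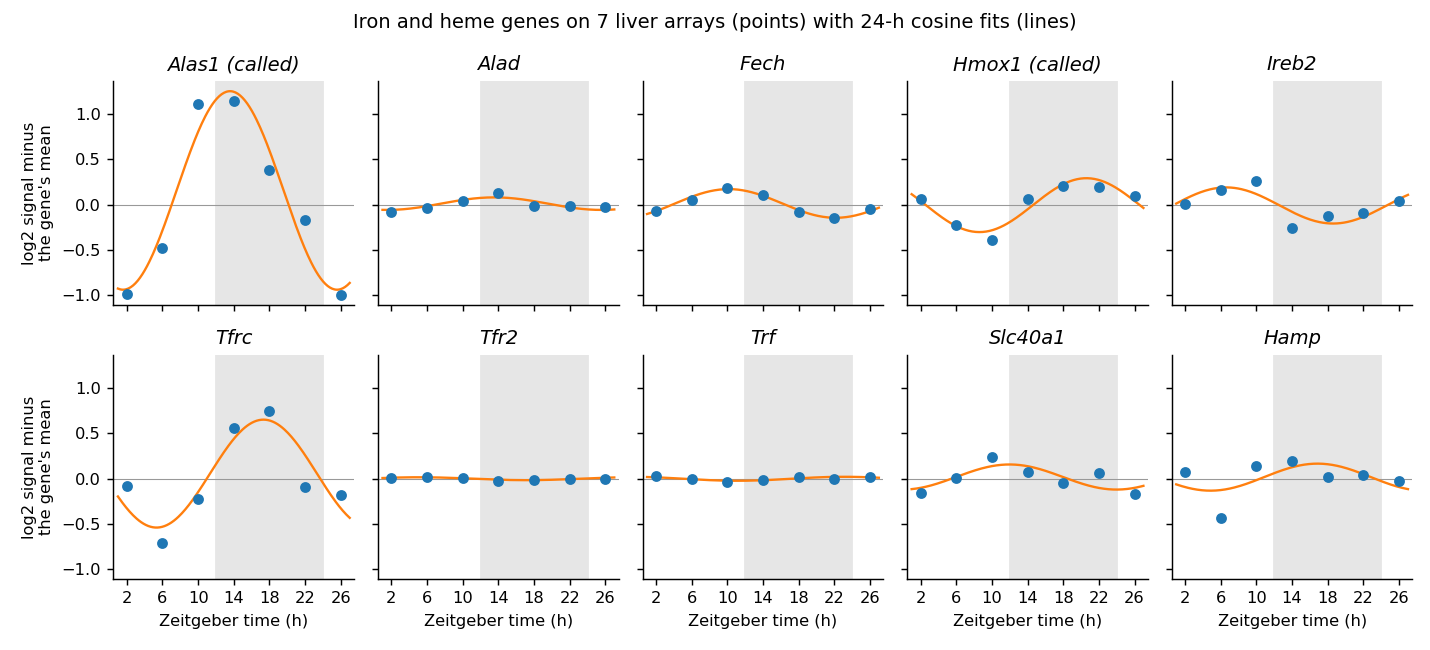
Log2 signal of each of the 10 genes minus its own mean (vertical axis) on the 7 arrays by Zeitgeber time in hours (horizontal axis), with the dark phase shaded; points are arrays, each 1 pool of 5 livers, and lines are cosine fits. Alas1 swings 4.40-fold between its lowest and highest array and Tfrc 2.72-fold, whereas Tfr2 and Trf stay within 1.03-fold and 1.04-fold.

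Alas1, the rate-limiting enzyme, had the widest swing of the 10. Its signal was 1652 units at ZT02, 2348 at ZT06, 7059 at ZT10, 7253 at ZT14, 4257 at ZT18, 2918 at ZT22 and 1648 at ZT26. The mRNA was thus high around lights off and low in the early light phase, and the pools at ZT02 and ZT26 lay within 0.01 of each other on the log2 scale. The fitted curve had an amplitude of 1.09 ± 0.11 (SE, 7 arrays), a fold of 4.56 and a peak at ZT13.6 (SE 0.440 h), with an adjusted p of 0.0186 (limma). Of the tested probe sets 99.7% had a smaller amplitude. Between ZT06 and ZT10 the signal rose 3.01-fold, the steepest step between neighbouring arrays. The rhythm was no longer called when the array at ZT02, ZT14 or ZT26 was left out, with adjusted p up to 0.0888 (limma), while the fold then stayed between 3.93, without ZT10, and 5.09, without ZT22.

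The stretch before the more upstream of its 2 listed starts is shown because Alas1 carries the largest rhythm, with a TTCNNNGAA match (the core of STAT sites) in capitals. It spans chr9:106247955-106248204 on the minus strand of GRCm38.p6 (RefSeq).
Alas1, 250 bases before the start: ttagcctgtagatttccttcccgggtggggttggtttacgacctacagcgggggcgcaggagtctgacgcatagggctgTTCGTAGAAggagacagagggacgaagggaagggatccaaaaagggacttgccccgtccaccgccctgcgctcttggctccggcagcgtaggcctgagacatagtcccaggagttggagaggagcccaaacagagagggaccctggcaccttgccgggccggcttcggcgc
A site for the nuclear respiratory factor NRF-1, a regulator of genes for mitochondrial proteins, lies just inside that start and 195 bases before the other. Its 30-base surrounding is chr9:106247906-106247935 on the same strand, with the match in capitals.
Alas1, NRF-1 letters: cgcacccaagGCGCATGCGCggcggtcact
The capitals of this NRF-1 site occur in 0.971% of the 32851 promoter windows of 300 bases (250 before to 50 after a start), and TTCNNNGAA in 8.3%. Letters of clock factor sites were searched on both strands in the 11 windows listed for 6 of the 10 genes (Alas1, Alad, Tfrc, Tfr2, Hamp and Ireb2). The D-box forms TTATGTAA and TTACGTAA, bound by Dbp, Tef and Hlf, occur in 0.938% and 0.119% of all windows and in none of the 11, and the same holds for the REV-ERB and ROR letters TAGGTCA, found in 2.61%. The E-box CACGTG, bound by Clock and Arntl, occurs in 7.15% of windows and, of these 6 genes, in those of Alad. A match says that the letters are there and not that a factor binds, and sites outside these windows were not searched.

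The enzymes after the first step had far smaller amplitudes. Alad, which joins the products of Alas1 into porphobilinogen, read 3856 units at ZT02, 3960 at ZT06, 4191 at ZT10, 4432 at ZT14, 4034 at ZT18, 4034 at ZT22 and 4007 at ZT26. Its amplitude was 0.07 ± 0.03, with a fitted peak at ZT13.6 (SE 1.83 h) and an adjusted p of 0.327 (limma). The highest array was the same as for Alas1, at a 1.15-fold range in place of 4.40-fold. Its stretch before the more upstream start carries the E-box, in capitals, 105 bases ahead of the start, at chr4:62520064-62520313 on the minus strand of GRCm38.p6 (RefSeq).
Alad, 250 bases before the start: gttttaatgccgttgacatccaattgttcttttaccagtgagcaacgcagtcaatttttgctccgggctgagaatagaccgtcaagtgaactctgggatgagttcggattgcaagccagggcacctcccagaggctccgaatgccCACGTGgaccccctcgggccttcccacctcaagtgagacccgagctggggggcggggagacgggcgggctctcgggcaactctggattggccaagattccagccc
A second E-box lies 28 bases before the other listed start.

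Fech, the mitochondrial enzyme that puts iron into the porphyrin ring and so ends the pathway, read 867 units at ZT02, 944 at ZT06, 1034 at ZT10, 980 at ZT14, 862 at ZT18, 821 at ZT22 and 881 at ZT26. The highest array was ZT10 and the lowest ZT22, with no value far from the curve. The amplitude was 0.16 ± 0.03, a 1.24-fold curve with a peak at ZT10.2 (SE 0.649 h), and the adjusted p of 0.0565 (limma) lay just above the threshold.

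Further enzymes of the pathway were looked at in the same way. Of 5 that were tested (Alas2, Uros, Urod, Cpox and Ppox) none was called, and their median amplitude was 0.14. An unadjusted p under 0.05 was found for 3 of these 5 (60%, against 25.7% of all tested probe sets). Uros, which closes the ring, had an amplitude of 0.19 ± 0.04 with a peak at ZT23.2 and an adjusted p of 0.0780 (limma). Urod, the next enzyme, had an amplitude of 0.05 ± 0.03. Alas2, the form of the first enzyme used by red cell precursors, ran from 1306 units at ZT18 to 1690 at ZT02 and had an amplitude of 0.16 ± 0.05 with a peak at ZT4.52, far from that of Alas1. Whether this signal came from blood cells left after perfusion was not tested. Here and for every gene below, fewer cells of a type and less RNA per cell cannot be told apart in bulk liver.

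To ask whether the first enzyme moved apart from the rest, the cosine was fitted to the log2 ratio of Alas1 over each of 7 other enzymes tested, and every order of the 7 arrays was tried. The ratio had an amplitude between 1.00 (over Fech) and 1.25 (over Uros), with exact two-sided permutation p between 0.00556 and 0.0214 and adjusted p of 0.0245 for each, over the 8 ratios tested in all. The smallest p that this design allows is 0.000794. All 7 ratios share the Alas1 probe set and were chosen after the data were seen. The other 7 enzymes had amplitudes of 0.05 to 0.19, so each ratio largely follows the curve of Alas1 itself, whose amplitude was 1.09. The p-values of the ratios are thus no separate evidence beside that curve.

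**Figure D2:**
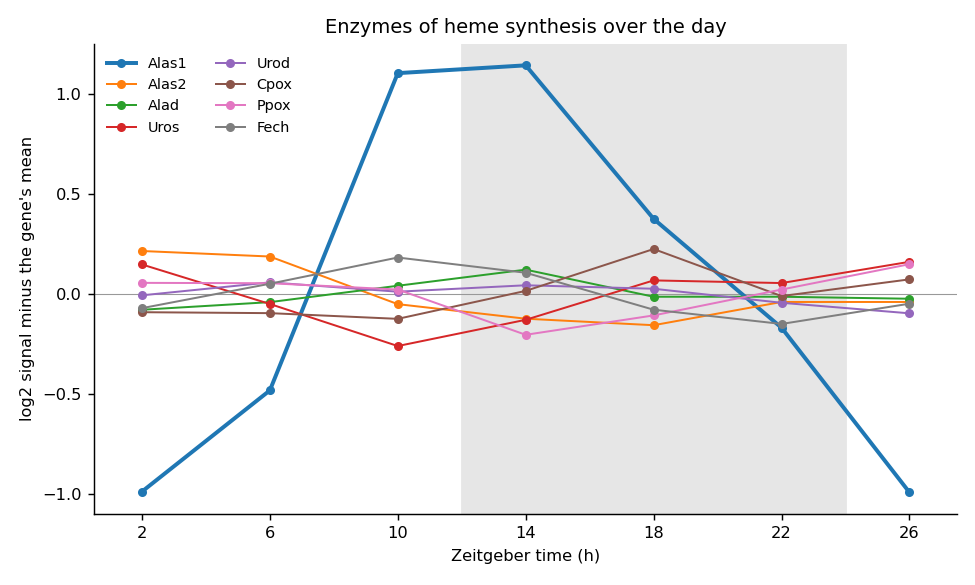
Log2 signal of 8 enzymes of heme synthesis minus each gene's own mean (vertical axis) by Zeitgeber time in hours (horizontal axis), 1 array of 5 pooled livers a point, dark phase shaded. Alas1 (thick line) rises to its plateau at ZT10 and ZT14, while the other 7 enzymes have amplitudes of 0.05 to 0.19.

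Hmox1, the inducible heme oxygenase, had a rhythm of another phase. It read 370 units at ZT02, 303 at ZT06, 270 at ZT10, 369 at ZT14, 408 at ZT18, 406 at ZT22 and 378 at ZT26. The trough at ZT10 fell on the first high array of Alas1, and the highest values came in the dark phase. The amplitude was 0.30 ± 0.05, the fold 1.51 and the peak ZT20.6 (SE 0.563 h), with an adjusted p of 0.0481 (limma). This call is a narrow one: it was lost without each of the 7 arrays in turn, with adjusted p of 0.0736 to 0.126 (limma), and it was made in 2 of 10 other ways of processing (leaving aside the averaging of probe sets, since this gene has 1), whereas the fold stayed between 1.38 and 1.59 and the peak between ZT20.2 and ZT21.4.

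Hmox1 is known to be strong in Kupffer cells, the liver macrophages that clear aged red cells, and Slc40a1 is also made there. Of 12 Kupffer cell markers 11 were tested, 6 were called rhythmic, against 4.47% of all tested probe sets, and 10 of the 11 had a fitted peak between ZT22 and ZT2, against 17.3%. Their summed signal was 8364 units at ZT02, 7625 at ZT06, 6013 at ZT10, 6421 at ZT14, 7572 at ZT18, 9140 at ZT22 and 9366 at ZT26, so that Hmox1 and the markers shared their lowest array. Summed hepatocyte, endothelial cell and stellate cell markers were also lowest at ZT10, but over narrower relative ranges. The hepatocyte sum ran from 89765 to 94518 units, the endothelial sum from 6113 to 7861 and the stellate sum from 6902 to 8346. At ZT02 the endothelial sum, 6153 units, was close to its ZT10 value. Erythroid markers were lowest at ZT18 and lymphocyte markers at ZT14, with 2 of 5 and 2 of 7 above the minimum level. Of the 1544 erythroid units at ZT18, Alas2 alone gave 1306. Clec4f, a receptor found on Kupffer cells, ran from 643 units at ZT10 to 1021 at ZT26, and Lyz2, the lysozyme of myeloid cells, from 645 at ZT14 to 1136 at ZT02. At ZT14 the markers were still low while Hmox1 had come back to 369 units, near its ZT02 level. The part of the Kupffer cell markers in the Hmox1 rhythm was not tested. Of the other 13 genes listed for heme breakdown and transport, all tested, none was called. The unadjusted p was under 0.05 for 5 of them (38.5%, against 25.7% of all tested probe sets). One of these 13, named after its values were seen, was Bach1, the heme-binding repressor of Hmox1: it stood at 876 units at ZT10, where Hmox1 was lowest, and between 490 and 618 on the other arrays, with an adjusted p of 0.128 (limma). The part of Bach1 in the Hmox1 values was not tested.

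**Figure D3:**
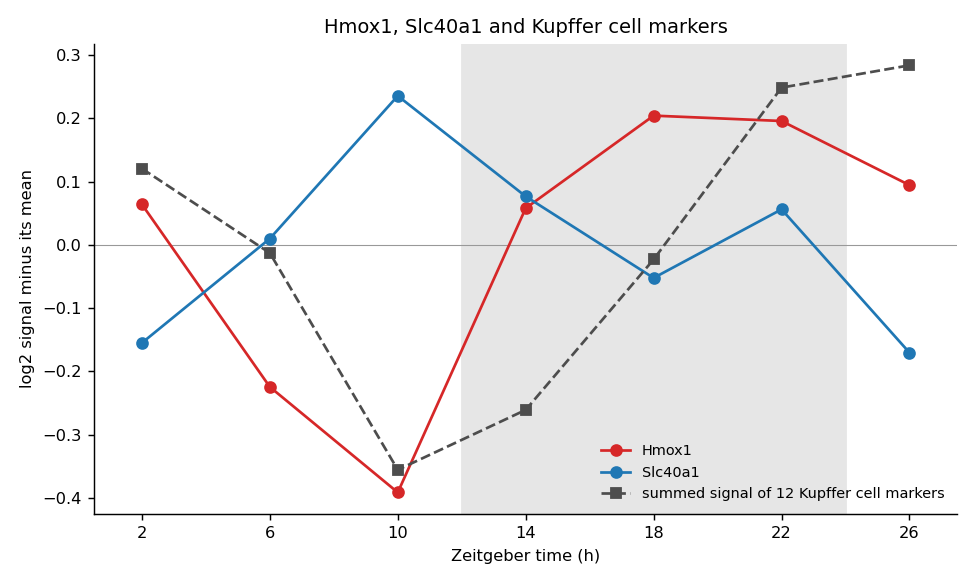
Log2 signal minus its mean over the arrays (vertical axis) by Zeitgeber time in hours (horizontal axis) for Hmox1, Slc40a1 and the summed signal of 12 Kupffer cell markers, 1 array of 5 pooled livers a point, dark phase shaded. Hmox1 and the markers are lowest at ZT10, the array on which Slc40a1 is highest. Summed hepatocyte, endothelial cell and stellate cell markers, not drawn, are also lowest at ZT10, over narrower relative ranges.

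Of the 3 genes of transferrin uptake among the 10, Tfrc had the largest amplitude, whereas Tfr2 and Trf were nearly flat. Tfrc read 241 units at ZT02, 157 at ZT06, 218 at ZT10, 375 at ZT14, 426 at ZT18, 239 at ZT22 and 225 at ZT26. It was thus high on the first 2 arrays of the dark phase, when the mice could eat, and near its ZT02 level at ZT22. The fitted amplitude was 0.59 ± 0.11, larger than that of 98.4% of tested probe sets, with a fold of 2.28 and a peak at ZT17.3 (SE 0.714 h). The adjusted p was 0.0638 (limma), so that Tfrc was not called, and it was called in 1 of the 7 fits that left an array out, at 0.0254 without ZT22. The study itself, by other criteria, listed Tfrc among genes with rhythmic mRNA and near-constant transcription. It also reported the cycling of this mRNA by quantitative RT-PCR. A cosine follows its shape loosely, since ZT22 lies well under the curve. Among 32851 windows 11.9% hold the letters GGCGCC, and one of the Tfrc windows does.

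Tfr2, the second transferrin receptor, which in hepatocytes takes part in sensing iron for hepcidin control, stayed between 2147 units at ZT14 and 2209 at ZT06, with an amplitude of 0.02 ± 0.03 and an adjusted p of 0.901 (limma). Trf, the plasma carrier made by hepatocytes, stayed between 15513 units at ZT10 and 16165 at ZT02, with an amplitude of 0.02 ± 0.03 and an adjusted p of 0.831 (limma). The highest signals of an array may be compressed, and whether this held for Trf was not tested. The log2 ratio of Tfrc over Tfr2 had an amplitude of 0.61 ± 0.15 (SE, 7 arrays), with an exact two-sided permutation p of 0.0333, also 0.0333 after adjustment over the 8 ratios. With Tfr2 nearly flat, this ratio follows the curve of Tfrc itself, whose amplitude was 0.59. It was chosen after the data were seen, and its p is no separate evidence for a Tfrc rhythm.

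Steap3, the reductase that turns iron from transferrin into its soluble form in endosomes, was the single rhythmic gene among 8 further genes of iron uptake and release that were tested, 12.5% beside the 4.47% of all probe sets. It read 583 units at ZT02, 529 at ZT06, 400 at ZT10, 336 at ZT14, 473 at ZT18, 602 at ZT22 and 607 at ZT26. Its trough at ZT14 thus fell on an array where Tfrc was high, and its amplitude was 0.40 ± 0.05, with a peak at ZT0.795 and an adjusted p of 0.0247 (limma). The call was lost without ZT02, ZT10, ZT14 or ZT26, with adjusted p up to 0.0835 (limma). Of these 8 genes 5 had an unadjusted p under 0.05 (62.5%, against 25.7% of all tested probe sets). Lcn2, a lipocalin that binds iron-carrying siderophores, had the largest amplitude of this list, 0.66 ± 0.21, above that of Tfrc, and ran from 235 units at ZT10 to 881 at ZT02, with an adjusted p of 0.192 (limma).

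Slc40a1, the iron exporter, read 1156 units at ZT02, 1296 at ZT06, 1516 at ZT10, 1358 at ZT14, 1242 at ZT18, 1338 at ZT22 and 1144 at ZT26. The highest array was ZT10 and the lowest were the pair at ZT02 and ZT26, a range of 1.32-fold. The amplitude of 0.14 ± 0.05, with a peak at ZT12.0 (SE 1.54 h), did not pass the test (adjusted p = 0.267, limma). Its highest array was the one on which the summed Kupffer cell markers were lowest. Summed hepatocyte, endothelial cell and stellate cell markers were lowest there too, over narrower relative ranges. The part of any of these markers was not tested.

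Hamp, the hormone that closes the exporter, read 8604 units at ZT02, 6089 at ZT06, 9036 at ZT10, 9381 at ZT14, 8291 at ZT18, 8460 at ZT22 and 8056 at ZT26. All arrays but ZT06 thus lay within 8056 to 9381 units, and ZT06 was at 0.756 of the lowest of them. The fitted amplitude was 0.15 ± 0.09 with an adjusted p of 0.533 (limma), and the fitted peak, ZT16.9 (SE 2.37 h), moved to ZT11.3 when ZT06 was left out, so that no time of day can be given for it. Its stretch before the start is shown for the letters of the BMP and STAT signals that are known to act on this gene, both in capitals: GGCGCC 109 bases and TTCTTGGAA 97 bases before the start, at chr7:30944030-30944279 on the minus strand of GRCm38.p6 (RefSeq).
Hamp, 250 bases before the start: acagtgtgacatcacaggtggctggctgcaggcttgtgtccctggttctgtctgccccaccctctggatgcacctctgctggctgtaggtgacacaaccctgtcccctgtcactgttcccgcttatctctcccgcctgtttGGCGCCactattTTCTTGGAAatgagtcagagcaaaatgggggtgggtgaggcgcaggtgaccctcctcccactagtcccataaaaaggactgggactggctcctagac

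The low at ZT06 was shared by some genes of the same list. Hamp2, the neighbouring hepcidin gene, stood at 183 units at ZT06 and between 381 and 588 elsewhere. As the Hamp and Hamp2 transcripts are near-identical, their probe sets may share signal. Smad6, an inhibitor of BMP signalling that is switched on by it, stood at 160 units at ZT06 and between 216 and 231 elsewhere. A low at ZT06 set apart by more than Dixon's limit was seen for these 3 of 21 tested genes of hepcidin control, against 0.869% of all tested probe sets. The 3 include Hamp, for which ZT06 was picked. In all, 6 of 21 had their lowest array at ZT06, against 11.3%. Among the 6, Acvr2a (343 units, next lowest 344), Smad7 (258, next 259) and Neo1 (485, next 498) were near ties. Stat3 was instead highest at ZT06 (1705 units, 1137 to 1670 elsewhere), as were Bmpr1a and Tfr2 by small margins. Id1, another target of BMP signalling, did not share it and was lowest at ZT18, and Bmp6, the ligand, was also lowest there. The pattern was noticed after the values were seen and rests on 1 pool.

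**Figure D4:**
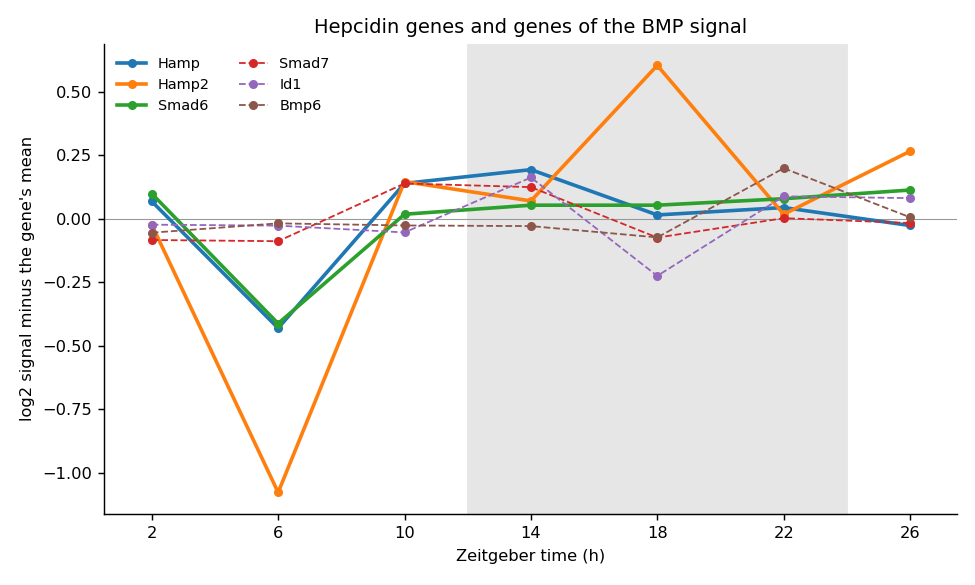
Log2 signal minus each gene's own mean (vertical axis) by Zeitgeber time in hours (horizontal axis) for both hepcidin genes and 4 genes of the BMP signal, 1 array of 5 pooled livers a point, dark phase shaded. Hamp, Hamp2 and Smad6 (thick lines) are lowest at ZT06, whereas Id1 and Bmp6 (broken lines) are lowest at ZT18.

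None of the 19 further genes of hepcidin control that were tested was called. An unadjusted p under 0.05 was found for 5 of them (26.3%), near the 25.7% of all tested probe sets. The widest amplitudes were those of Hamp2, at 0.49 ± 0.21 with an adjusted p of 0.333 (limma), and Il6ra, the receptor for the cytokine that raises hepcidin in inflammation. Il6ra read 730 units at ZT02, 1387 at ZT10 and 1307 at ZT14, with a peak at ZT12.8 and an adjusted p of 0.0982 (limma).

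Ireb2, the iron regulatory protein, read 1160 units at ZT02, 1295 at ZT06, 1386 at ZT10, 966 at ZT14, 1059 at ZT18, 1085 at ZT22 and 1190 at ZT26. The 3 dark arrays thus lay below the 4 light arrays with no overlap, as held for 4.45% of tested probe sets. None of the 10 showed the opposite order, dark above light, which 4.23% of tested probe sets did. The amplitude was 0.20 ± 0.06, with a peak at ZT6.60 (SE 1.09 h), and the adjusted p of 0.187 (limma) did not pass. From ZT10 to ZT14, on either side of lights off, the log2 difference was -0.52. Over the same interval Tfrc, whose mRNA is a known target of the protein, read 218 and then 375 units. A link between these changes was not tested.

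Of the 9 further genes of iron sensing and storage that were tested none was called, and their median amplitude was 0.05. Epas1, the oxygen-regulated factor also known as HIF-2α, had the largest amplitude after Ireb2, 0.18 ± 0.04, with a peak at ZT14.2 and an adjusted p of 0.110 (limma). Of 17 tested genes of mitochondrial iron and iron-sulfur clusters none was called. The unadjusted p was under 0.05 for 6 of them (35.3%, against 25.7% of all tested probe sets). The largest amplitudes were 0.27 ± 0.06 for Slc25a37 (mitoferrin), which carries iron into mitochondria, with a peak at ZT13.8, and 0.24 ± 0.05 for Glrx5, which hands on iron-sulfur clusters, with a peak at ZT13.2. Slc25a37 ran from 476 units at ZT02 to 765 at ZT10 and Glrx5 from 1305 at ZT26 to 2001 at ZT14, with adjusted p of 0.0983 and 0.0687 (limma). Over the 6 lists together, 1 of 71 tested genes other than the 10 was called (1.41%, against 4.47% of all tested probe sets), and 27 (38%, against 25.7%) had an unadjusted p under 0.05.

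**Figure D5:**
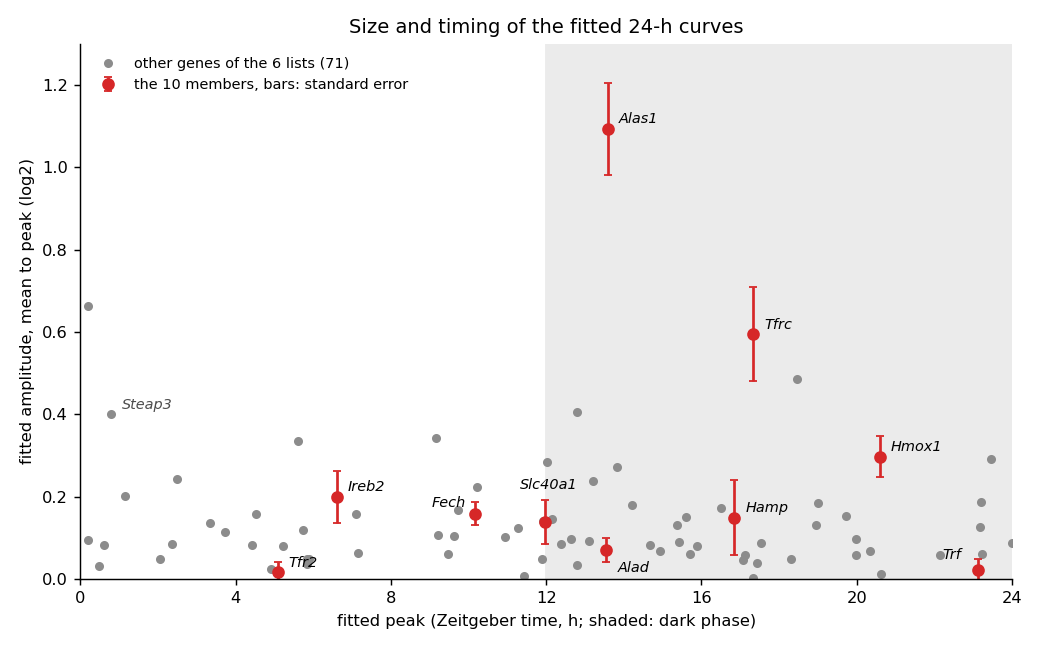
Fitted amplitude (log2, mean to peak, vertical axis) against fitted peak time (Zeitgeber time in hours, horizontal axis) for the 10 genes, with standard errors of the amplitude, and for 71 other genes of the 6 iron and heme lists; the dark phase is shaded. Alas1 at 1.09 and Tfrc at 0.59 stand above the other 8 genes, whose amplitudes run from 0.02 to 0.30; peak times of genes with small amplitudes carry wide errors that are not drawn.

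Set on the clock of these livers, Alas1 with its peak at ZT13.6 came after Nr1d1 at ZT7.18, Nr1d2 at ZT9.47, Dbp at ZT10.9 and Tef at ZT12.3, lay next to Hlf at ZT13.8, and preceded Per2 at ZT15.1. These and Arntl at ZT22.8 were the 7 genes called among 11 tested clock and coactivator genes. Ppargc1a, the coactivator known to induce Alas1 in fasting, had an amplitude of 0.17 and was not called (adjusted p = 0.523, limma). Of 1851 tested genes whose highest array exceeded the lowest at least 1.5-fold, those closest in shape to Alas1 over the 7 arrays were Mtss1 (Pearson's r 0.996), Noct (0.995) and Ciart (0.990), with fitted peaks at ZT13.4, ZT13.7 and ZT13.0. Noct (nocturnin) and Ciart are clock-controlled genes. Closest to Tfrc were Gm10589 (0.986), Prmt3 (0.982) and the lipogenic enzyme Fasn (0.980). Fasn ran from 2668 units at ZT06 to 6852 at ZT18, the lowest and highest arrays of Tfrc. Closest to Hmox1 were Itga5 (0.997), Ahctf1 (0.988) and Nbeal2 (0.982). With 7 points and so many genes, high correlations are bound to occur, and they are given as a description.

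ZT02 and ZT26 give the only look at how far 2 pools of the same clock time differ. For the 10 genes the difference was between 0.004 (Alas1) and 0.10 (Tfrc) on the log2 scale, where the median over all tested probe sets was 0.09. Each array correlated with the other 6 at a mean Pearson's r of 0.991 to 0.993 over probe sets. Hepatocyte markers summed to between 89765 and 94518 units and none of 7 was called, with Alb between 16133 and 17266 and Fgb between 10564 and 12353. Endothelial cell markers summed to 6113 to 7861 units with none of 8 called (Pecam1 229 to 253, Lyve1 405 to 674). Stellate cell markers summed to 6902 to 8346 with 1 of 8 called (Pdgfrb, peak ZT1.33, and Lrat 444 to 706). An unadjusted p under 0.05 was found for 7 of 8 stellate cell, 2 of 8 endothelial cell and 1 of 7 hepatocyte markers. Over all tested probe sets the share was 25.7%. Erythroid markers had 2 of 5 above the minimum, Alas2 and Klf1, and lymphocyte markers 2 of 7, Cd3e and Ptprc, with none called.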

How the data were processed

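The authors deposited log2 values of 7 arrays, for which the labels name RMA and, as software, Affymetrix Expression Console 1.1.2637.26569. Background, scaling of the arrays to each other and the summary of probes were thus set before deposit. From each of 5 livers 500 ng of RNA had been pooled and 100 ng labelled. Of 35556 probe sets, 21789 carry a single symbol in the platform annotation. The 12076 of these with a mean above 85 units were fitted here with a cosine and tested by the moderated F-test (limma 3.58.1, lmFit and eBayes, R 4.3.3) with 4 residual degrees of freedom and Benjamini-Hochberg adjustment. The study's sequencing of chromatin was not analysed here. In simulated data 54%, 90%, 100% and 100% of rhythms with amplitudes of 0.25, 0.5, 1 and 2 (50 each) were recovered, with 9 false calls. These shares hold for the noise simulated and need not hold for each gene. Tfrc, with a fitted amplitude of 0.59, was not called. The number of arrays limits the precision. Genes, lists and tests were chosen with earlier results of these data known.

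Named outside the 10 genes were, of each list, the genes called or otherwise the largest 2 amplitudes, the first and the widest marker of each cell type, and the 3 genes closest in shape to the 3 members of largest amplitude. Genes discussed beyond this rule (the other enzymes of heme synthesis, Bach1, Lcn2, Smad6, Id1, Bmp6 and Ppargc1a) were named after their values were seen. Log2 ratios were tested by exact permutation in Python 3.11.15 with numpy 2.4.6. Promoter windows are RefSeq's for GRCm38.p6, and 6 of the 10 genes have an entry. Each alternative changed a single choice, except that Fisher's test also left out ZT26: the test, the shared spread, the minimum level, the background, the scaling, a linear drift, averaging ZT02 with ZT26, averaging probe sets, and leaving out each array.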

Additional observations from a re-analysis of the deposited data

Results flagged for a closer look

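At ZT06 the Hamp array value, 6089 units, was set apart from the others: its gap to the nearest array was 0.648 of the whole range of the gene on the log2 scale, above the limit of Dixon's test for 7 values. Chance gives such a gap in about 1 of 20 genes, and 10 genes were looked at. The 7 arrays are different times of day, and with 1 pool at each time a trough of the day and a property of that pool cannot be told apart.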

How the results depend on the processing

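Of the 10 genes, 2 were called, Alas1 and Hmox1. The count was 0 with Fisher's test for a single period on 6 arrays, with the ordinary F-test, with no minimum level, with ZT02 and ZT26 averaged, with a linear term, and with the spread taken over all probe sets (an alternative chosen after seeing the data). It was 1 with 43 units subtracted, 2 with a trend or averaged probe sets, 2 with centred medians (Fech called and Hmox1 lost, at an adjusted p of 0.0504, limma), 3 with the minimum doubled (Fech added), and 0 to 2 with an array left out. Over all probe sets the count of 540 became 0 with Fisher's test, which also leaves out ZT26 (83 with limma on the same 6 arrays), 0 with the ordinary F-test, 57 with no minimum, 93 with averaging, 98 with a linear term and 54 with the spread over all probe sets, then 320 with 43 units subtracted, 657 with a trend, 703 with the minimum doubled, 570 and 494 with centred medians and averaged probe sets, and 13 to 312 with an array left out. In the lists, heme synthesis (1 called) gave 0 under the 6 settings that gave 0 above, 2 with the minimum doubled or centred medians, and 0 to 1 with an array left out. Heme breakdown (1 called) gave 0 under those 6, with 43 units subtracted, with centred medians and without any array. Iron uptake (1 called) gave 0 under those 6, 2 with the minimum doubled and 0 to 3 with an array left out. Hepcidin control (0 called) gave 0 to 1 with an array left out. Clock genes (7 called) gave 0 with Fisher's and the ordinary F-test, 4 with no minimum, averaging or a linear term, 3 with the spread over all probe sets, and 2 to 8 with an array left out. The causes were not tested. No paired analysis was possible because each time has 1 array and the labels give no replicate numbers.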
